A study of Rattus norvegicus with 25 samples.

Results

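The genes of the elastic fibre were followed in rat molars that had been taken out of the jaw, left dry and replanted. The family was a list of 10 genes: elastin (Eln), 3 fibulins (Fbln1, Fbln2 and Fbln5), fibrillin-1 (Fbn1), the microfibril proteins Mfap4, Mfap5 and Emilin1, and the cross-linking enzymes Lox and Loxl1. It was chosen because Eln and Fbln1 were higher at day 7 than at day 3 in these same libraries, so the members' differences between the days are given below as descriptions, and nothing is read from how many of them were past the threshold. Of the 10 listed genes, 9 had an entry among the 16881 distinct gene symbols in the count files, and all 9 passed the filter on low counts. Fbln2 was not analysed here.

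The material was tooth with periodontal ligament, the tissue that ties the root to the jaw bone, from rats labelled postnatal day 21. In delayed replantation (DR) the extracted maxillary first molar was dried for 60 min, and in immediate replantation (IR) for 5 min. Tissue was taken at day 7 or day 3 after replantation, which gave the groups DR day 7, IR day 7, DR day 3 and IR day 3 with 6 libraries each, beside 1 library labelled NT, with control as its treatment and time. Extraction and replantation were shared by DR and IR, and the labels do not say whether the stated age is that at surgery or at sampling. They do not say either that the libraries came from separate animals, so a p-value here measures the spread between libraries.

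Elastic fibres are laid down in steps. Fibrillin assembles into microfibrils, tropoelastin, the soluble product of Eln, is guided onto them with the help of fibulins, and lysyl oxidases cross-link it into insoluble elastin. Most elastic-system fibres of the periodontal ligament are oxytalan fibres, bundles of microfibrils with little or no elastin core, and elastin itself is found mainly in vessel walls and gingiva.

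Depth was 5.04 to 8.81 M counts per replanted library and 8.55 M in NT. The 9 genes together took 0.0132% to 0.0973% of a replanted library. Several day 3 libraries stood apart in tissue markers. A list of lipid-secreting gland genes, of which 8 of 10 had an entry, took 1.62%, 1.6% and 2.24% of counts in DR day 3 replicates 1, 2 and 3 and 2.65% in IR day 3 replicate 6, against 0.000613% to 0.548% in the other 20 replanted libraries and 0.00454% in NT. Awat1 and Awat2, wax-ester synthases of sebaceous glands, were at 0 in all DR day 3 and IR day 3 libraries and in NT. A nasal and salivary gland list took 23.2% and 27.4% of counts in IR day 3 replicates 3 and 4. The list for ligament fibroblasts and fibrillar collagen, with all 12 genes detected in every group, had its lowest, median and highest share at 5.52%, 6.94% and 8.2% in DR day 7 and at 5.75%, 7.52% and 13.3% in IR day 7. It was at 0.474%, 2.66% and 4.4% in DR day 3, at 0.135%, 2.07% and 6.03% in IR day 3, and at 19.3% in NT. By median its share was thus highest in NT and lowest in the day 3 groups, though IR day 3 overlapped both day 7 groups. The osteoblast and odontoblast list was also highest in NT, at 1.86%. In bulk tissue, fewer cells of a type and less RNA per cell cannot be told apart.

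Promoter windows of 250 bases before to 50 bases after an annotated start are shown for Fbn1, Fbln5 and Loxl1. Fbn1 varied together with Lox and Emilin1, and Fbln5 was highest in the 4 libraries of high lipid gland share. Loxl1 lay below NT in all 24 replanted libraries, as did 9.1% of genes. The windows are RefSeq sequences of the GRCr8 assembly, all on the minus strand and written 5′ to 3′. They lie at chr6:126742657-126742956 for Fbln5, chr3:133203341-133203640 for Fbn1 and chr8:67612175-67612474 for Loxl1, each at the start that the source used. The Fbln5 and Loxl1 windows span the outer end of their genes (126742847 and 67612224). The Fbn1 window lies wholly inside its gene, which ends at 133204277, and its last 50 bases begin with ATG. Whether the Fbn1 window holds promoter sequence was not tested. Capitals mark matches, on either strand, to the core promoter element TATAAA, to the Sp1-type box with letters GGGCGG, to the AP-1 motif TGANTCA, to the SMAD half-palindrome CAGACA and to the E-box motif CANNTG.
Fbln5: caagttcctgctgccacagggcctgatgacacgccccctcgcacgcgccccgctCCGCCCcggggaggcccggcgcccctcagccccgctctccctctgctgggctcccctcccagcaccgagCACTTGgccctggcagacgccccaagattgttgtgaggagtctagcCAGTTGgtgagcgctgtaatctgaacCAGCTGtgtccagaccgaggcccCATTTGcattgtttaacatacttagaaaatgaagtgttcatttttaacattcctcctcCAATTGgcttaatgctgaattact
Fbn1: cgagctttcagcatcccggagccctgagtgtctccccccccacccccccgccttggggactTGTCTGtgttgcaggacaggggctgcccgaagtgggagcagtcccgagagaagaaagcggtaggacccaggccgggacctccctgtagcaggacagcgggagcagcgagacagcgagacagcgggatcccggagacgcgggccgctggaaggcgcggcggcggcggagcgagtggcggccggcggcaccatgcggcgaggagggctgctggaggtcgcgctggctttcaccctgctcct
Loxl1: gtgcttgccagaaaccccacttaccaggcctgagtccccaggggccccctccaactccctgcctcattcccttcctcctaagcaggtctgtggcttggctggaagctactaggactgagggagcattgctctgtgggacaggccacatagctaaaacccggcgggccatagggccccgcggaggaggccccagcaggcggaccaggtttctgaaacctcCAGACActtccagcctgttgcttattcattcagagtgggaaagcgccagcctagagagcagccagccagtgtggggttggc

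The Fbln5 window held 5 matches to CANNTG and 1 to GGGCGG, the Fbn1 window 1 CAGACA on the opposite strand and the Loxl1 window 1 CAGACA, with no overlap between matches. Among 33469 promoter windows of the same length, the E-box motif was found in 72.1%, the Sp1-type box in 33.1%, the SMAD half-palindrome in 21.1%, the core promoter element in 14.2% and the AP-1 motif in 7.33%. The GC content was 58.3% for Fbln5, 70.7% for Fbn1 and 61% for Loxl1, against a median of 51.7% over all windows. The Fbn1 match and GC content are those of a stretch inside the gene. These matches are letters in a sequence and were not tested for binding.

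Levels are given as CPM, counts after all libraries were scaled to the same total, as the lowest, the median and the highest of the 6 libraries of a group. These libraries read the 3′ end of transcripts, so CPM were not divided by transcript length. Eln, which encodes the elastic core of the fibre, was at 46.2, 76.5 and 111 CPM in DR day 7 and at 75.4, 108 and 139 CPM in IR day 7. It was at 15.9, 25.2 and 52.9 CPM in DR day 3, at 7.64, 25 and 48.1 CPM in IR day 3, and at 102 CPM in NT. All 6 IR day 7 libraries lay above all 6 IR day 3 libraries, while DR day 7 and DR day 3 overlapped through DR day 7 replicate 3 and DR day 3 replicate 5. The fitted log2 fold change of day 7 over day 3 was 1.74 (SE 0.27) as the mean of both drying groups, 1.41 (SE 0.379) within DR and 2.08 (SE 0.386) within IR. The NT value fell inside the range of both day 7 groups and above every day 3 library.

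Fbn1, the fibrillin that forms the microfibril backbone, overlapped between all groups. It was at 31.5, 81.6 and 111 CPM in DR day 7 and at 34.6, 93.9 and 137 CPM in IR day 7. It was at 15, 56.7 and 147 CPM in DR day 3, at 14.7, 28.7 and 154 CPM in IR day 3 and at 45.4 CPM in NT. The 2 highest Fbn1 values in the series, 154 CPM in IR day 3 replicate 2 and 147 CPM in DR day 3 replicate 6, came from day 3, and the time difference was 0.35 (SE 0.409) on the log2 scale.

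Mfap4, a microfibril-associated glycoprotein that binds tropoelastin and fibrillin-1, had the same order of medians as Eln over the 4 replanted groups. It was at 22.1, 33.1 and 49.6 CPM in DR day 7, at 18, 38.1 and 54.3 CPM in IR day 7, at 6.1, 15.1 and 25 CPM in DR day 3, at 8.75, 14.3 and 26.5 CPM in IR day 3 and at 48.7 CPM in NT. Both day 7 groups had medians above every day 3 library, though the ranges overlapped, and the log2 fold change of day 7 over day 3 was 1.24 (SE 0.225), with 1.19 in DR and 1.30 in IR.

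Mfap5, a microfibril glycoprotein that binds fibrillin, was the member whose drying groups lay farthest apart at day 7. It was at 66.2, 88.5 and 119 CPM in DR day 7 and at 79.6, 156 and 197 CPM in IR day 7. It was at 28.7, 70 and 229 CPM in DR day 3, at 12.1, 45.9 and 139 CPM in IR day 3 and at 121 CPM in NT. The highest Mfap5 value came from DR day 3 replicate 6. Every pair of these groups overlapped.

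Emilin1, a glycoprotein at the border between elastin and microfibrils, had the highest median CPM of the 9 in each replanted group. It was at 124, 196 and 239 CPM in DR day 7 and at 118, 227 and 274 CPM in IR day 7. It was at 15.2, 81.3 and 253 CPM in DR day 3, at 5.63, 73.9 and 366 CPM in IR day 3 and at 193 CPM in NT. The day 3 libraries ran both below and above the day 7 range. The 4 libraries of high lipid gland share were at 35, 31.4, 15.2 and 5.63 CPM, the lowest Emilin1 values of the 24.

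**Figure D1:**
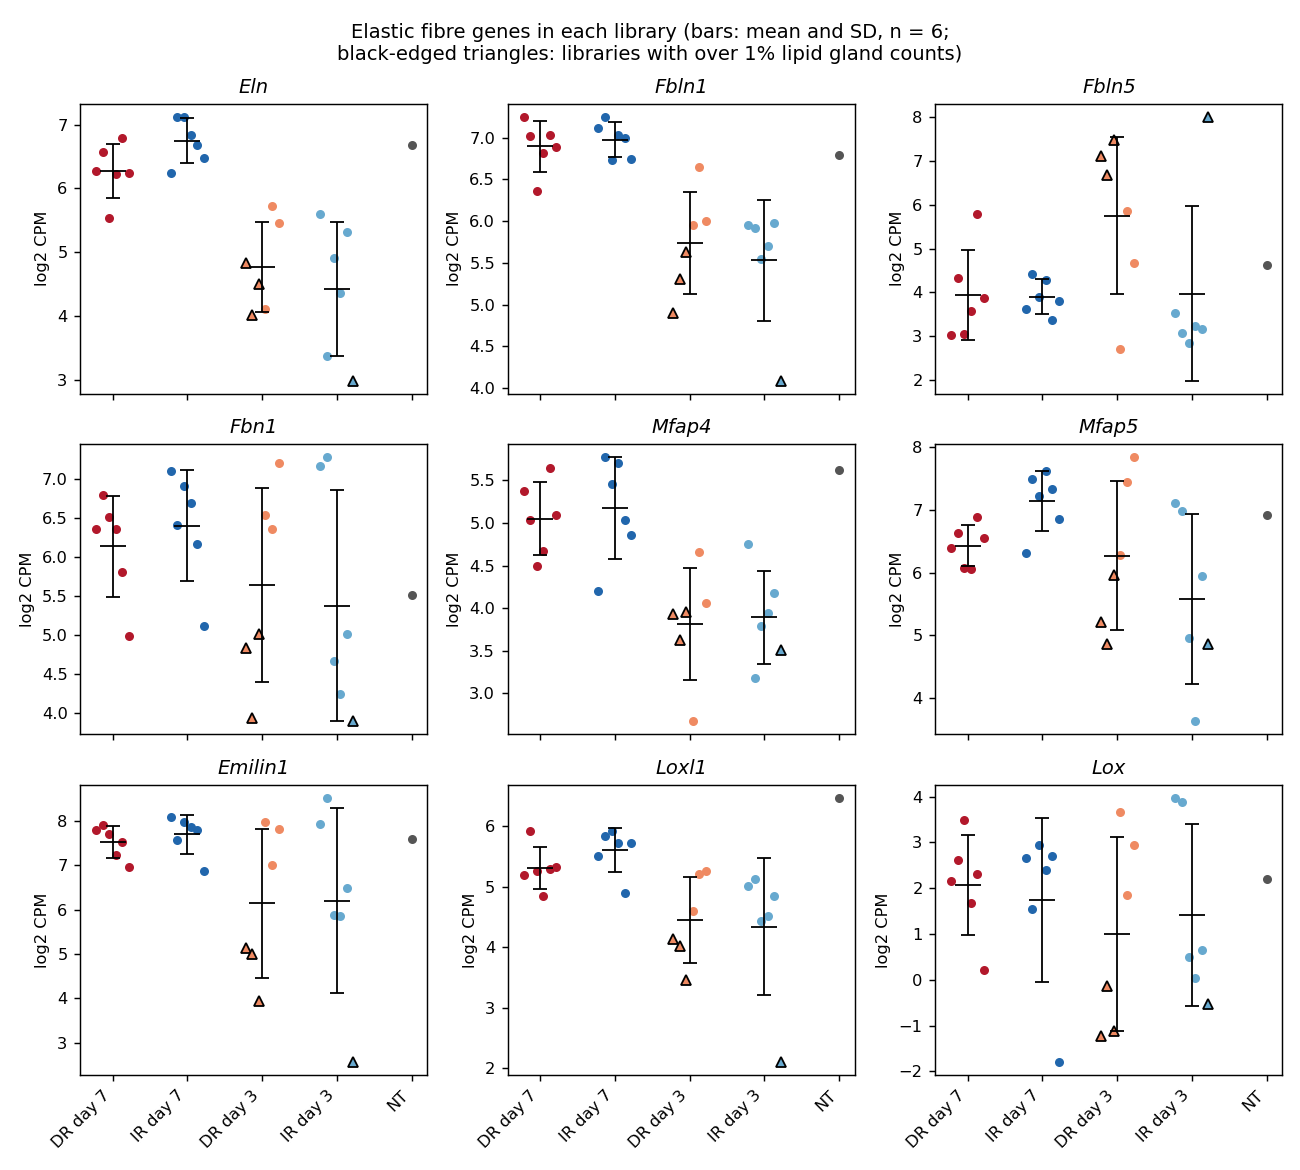
Level of each of the 9 elastic fibre genes as log2 CPM (y axis) in each library, by group (x axis), with bars for the mean and SD of 6 libraries and triangles for the 4 libraries with over 1% lipid gland counts. Eln, Fbln1 and Mfap4 sit higher at day 7, and Fbln5 is highest in the triangle libraries. Within each drying group all members spread more at day 3 than at day 7, except Mfap4 within IR.

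Fbln1, a fibulin of basement membranes and elastic fibres that binds fibronectin, had the smallest spread of the 9 at day 7, with an SD of 0.30 in DR and 0.21 in IR on the log2 scale. It was at 81.6, 124 and 152 CPM in DR day 7 and at 106, 129 and 151 CPM in IR day 7. It was at 29.5, 55.5 and 100 CPM in DR day 3, at 16.7, 55.9 and 62.9 CPM in IR day 3 and at 110 CPM in NT. The 2 IR groups did not overlap, and the 2 DR groups overlapped through DR day 3 replicate 5. The log2 fold change of day 7 over day 3 was 1.21 (SE 0.193) as the mean of both drying groups, with 1.08 in DR and 1.34 in IR.

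Fbln5 binds tropoelastin and, in mice, is needed for normal elastic fibre assembly. It was at 7.81, 13 and 55.2 CPM in DR day 7, at 10.1, 14.1 and 21.2 CPM in IR day 7, at 6.25, 80.7 and 178 CPM in DR day 3, at 6.85, 8.89 and 257 CPM in IR day 3 and at 24.4 CPM in NT. Its fitted log2 fold change of day 7 over day 3, -1.92 (SE 0.621), had the opposite sign to that of Eln. That value rested on the 4 libraries of high lipid gland share. In them Fbln5 was at 138, 103 and 178 CPM (DR day 3 replicates 1, 2 and 3) and at 257 CPM (IR day 3 replicate 6), against 6.25 to 58.3 CPM in the other 20 replanted libraries. The next highest, DR day 3 replicate 5 at 58.3 CPM and DR day 7 replicate 5 at 55.2 CPM, held 0.548% and 0.445% of lipid gland counts, also the next highest shares. Without the 4 libraries the log2 fold change was 0.10 (SE 0.378), and without IR day 3 replicate 6 alone it was -0.67 (SE 0.403). Within IR the fitted value was -1.73 (SE 0.875), while the mean log2 CPM was 3.90 ± 0.40 at IR day 7 and 3.97 ± 1.99 at IR day 3 (SD, n = 6 each), and without IR day 3 replicate 6 the fitted value was 0.78 (SE 0.596).

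**Figure D2:**
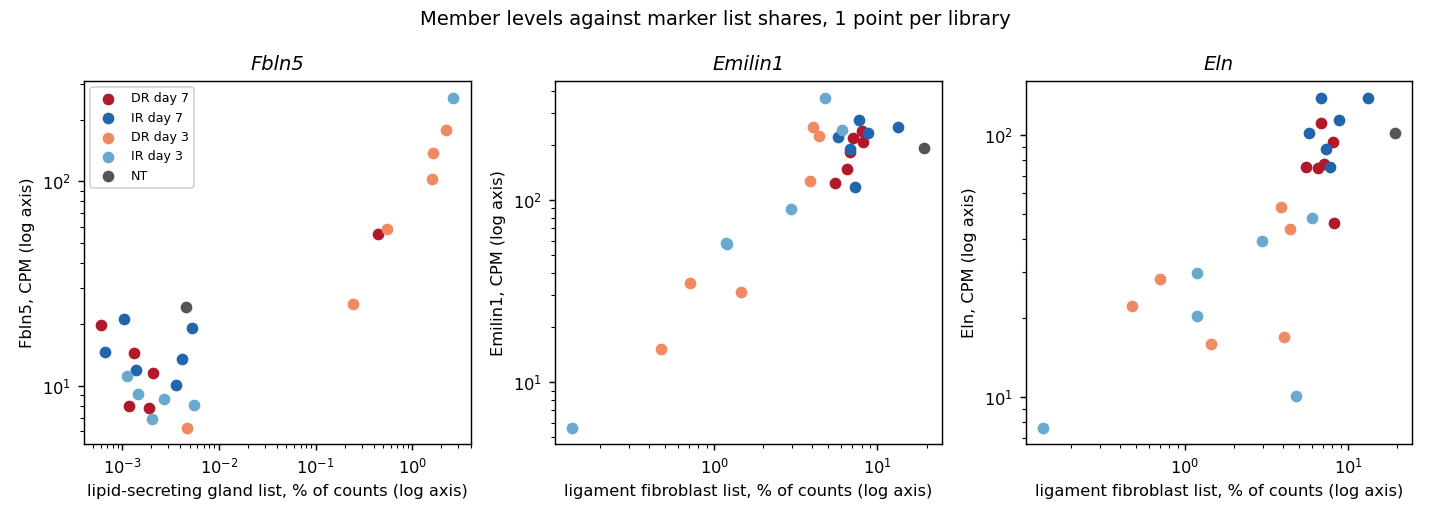
Level of Fbln5 against the share of counts taken by the lipid-secreting gland list, and of Emilin1 and Eln against the share taken by the ligament fibroblast list (all axes logarithmic, 1 point per library, coloured by group). The 4 libraries with 1.6% or more lipid gland counts hold the 4 highest Fbln5 values, 103 to 257 CPM, and Emilin1 runs along the fibroblast share more closely than Eln does.

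Loxl1, a lysyl oxidase that in mice maintains elastin in adult tissue, lay below NT in every replanted library, as did 9.1% of genes. It was at 28.6, 38.5 and 59.8 CPM in DR day 7 and at 29.6, 52.4 and 60.2 CPM in IR day 7. It was at 10.7, 20.5 and 38 CPM in DR day 3, at 4.02, 25.6 and 34.8 CPM in IR day 3 and at 87.9 CPM in NT. Day 7 and day 3 overlapped within both drying groups, and the log2 fold change of day 7 over day 3 was 0.90 (SE 0.252).

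Lox, the copper enzyme that cross-links collagen and elastin, had few counts, 0 to 124 in a replanted library. It was at 0.876, 4.41 and 11 CPM in DR day 7 and at 0, 5.49 and 7.46 CPM in IR day 7. It was at 0.136, 1.97 and 12.3 CPM in DR day 3, at 0.402, 1.19 and 15.4 CPM in IR day 3 and at 4.26 CPM in NT. IR day 7 replicate 6 had a count of 0, which allows up to 3 counts or 0.318 CPM by counting error alone. All groups overlapped, and the time difference was 0.00 on the log2 scale with an SE of 0.737, an error too wide to resolve a moderate change.

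In the RefSeq annotation a long noncoding RNA gene overlaps each of Eln, Fbln1 and Fbn1, and a ribosomal protein pseudogene overlaps Lox. Whether counting used strand is not given in the sources used here, so reads of these partners cannot be told apart from those of the members.

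The comparison of DR with IR asks whether the longer drying time changed these genes, and its average over both days is orthogonal to the time contrasts that chose the family. No member passed the test in it. Of 11492 genes tested with edgeR's quasi-likelihood test, 0 passed an adjusted p of 0.05 (0% called), 197 had an unadjusted p under 0.05, and none of these was a member, while 14 genes and no member passed in DESeq2. The largest difference was that of Fbln5, 0.56 (SE 0.603, 95% interval -0.69 to 1.81, adjusted p = 1, edgeR). For Eln it was -0.13, with an interval of -0.67 to 0.42. For Fbln1 it was 0.06, with an interval of -0.33 to 0.46, and Mfap4 (-0.57 to 0.35) and Loxl1 (-0.68 to 0.36) were bounded about as closely. The intervals of Emilin1 (-1.19 to 0.74), Fbn1 (-0.97 to 0.72), Mfap5 (-0.8 to 0.67) and Lox (-1.66 to 1.29) leave room for differences of nearly 1 log2 unit or more. The median over the 9 members was -0.13, against -0.02 over all genes tested.

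The outcome for Fbln5 depended on 1 library. Without IR day 3 replicate 6, Fbln5 was higher in DR than in IR by 1.82 on the log2 scale (SE 0.417, edgeR adjusted p = 0.0251) over both days, in a fit that then called 201 genes. With that library in place it was at 257 CPM there and at 6.85 to 11.2 CPM in the other 5 IR day 3 libraries. With all 4 libraries of high lipid gland share left out, 0 members and 0 genes passed. That fit kept only replicates 4, 5 and 6 of DR day 3, beside replicates 1 to 5 of IR day 3, so it had less power. In limma-voom with sample quality weights Fbln5 passed over both days (1.61, with 376 genes called), at day 3 (3.19, with 1523) and in the interaction (-3.17, with 747).

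At day 7 no member separated DR from IR, with 0% of genes called and 206 genes but no member at an unadjusted p under 0.05 (edgeR), and 3 genes but no member passing in DESeq2. DR day 7 and IR day 7 overlapped for all 9 members, beside 0.0348% of genes without overlap on the higher and 0.0957% on the lower side. The lowest p was that of Mfap5, at -0.74 (SE 0.506, interval -1.79 to 0.31, edgeR adjusted p = 1), followed by Eln at -0.46 (SE 0.371, interval -1.23 to 0.31). The median over members was -0.20, against 0 over all genes.

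At day 3 again no member passed, with 0% of genes called, 313 genes and no member at an unadjusted p under 0.05 (edgeR), and 0 genes passing in DESeq2. All 9 members overlapped between DR day 3 and IR day 3, where 0% of genes lay wholly higher and 0.0174% wholly lower. Fbln5 was at 0.76 (SE 0.851, interval -1 to 2.52, edgeR adjusted p = 0.983) and Mfap5 at 0.61 (SE 0.506, interval -0.44 to 1.66). Without IR day 3 replicate 6, Fbln5 was higher in DR day 3 than in IR day 3 by 3.27 on the log2 scale (SE 0.647, edgeR adjusted p = 0.00791), and that fit called 576 genes. The 3 DR day 3 libraries with the highest Fbln5 were those with 1.6% to 2.24% of lipid gland counts.

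The interaction, which sets the DR over IR change of day 7 against that of day 3, likewise called 0% of genes, with 346 genes and no member at an unadjusted p under 0.05 (edgeR) and 11 genes but no member passing in DESeq2. Mfap5 had the lowest p among the members, with -1.35 (SE 0.716, interval -2.83 to 0.13, edgeR adjusted p = 1). It was 0.21 lower at day 7 than at day 3 on the log2 scale in DR (-0.21, SE 0.504), and 1.15 higher in IR (SE 0.51). The per-day and interaction values share libraries with the time contrasts that chose Eln and Fbln1.

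**Figure D3:**
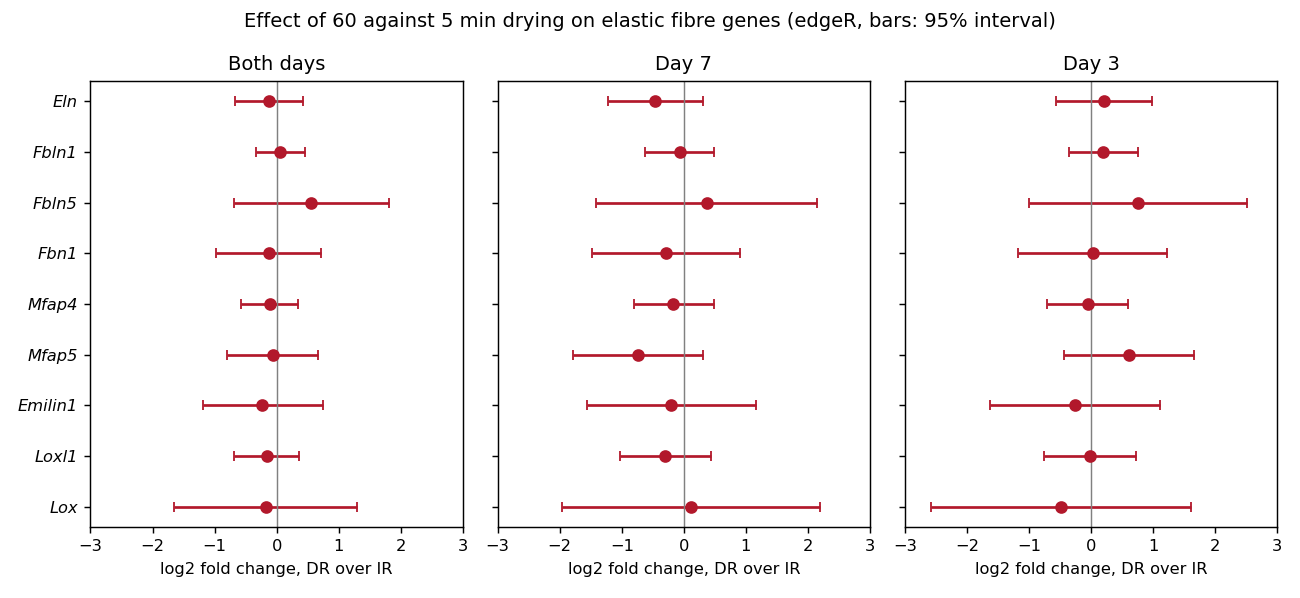
Log2 fold change of DR over IR (x axis) for each of the 9 genes (y axis), over both days, at day 7 and at day 3, with bars for the 95% interval of the edgeR fit. All intervals cross 0, those of Fbln1, Mfap4, Loxl1 and Eln over both days are the narrowest, and that of Lox is the widest.

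Over time, Eln, Fbln1, Mfap4 and Loxl1 had positive and Fbln5 negative values past the threshold when the drying groups were averaged (5 of 9 members), in a contrast that called 18.8% of all genes, 6.94% higher and 11.8% lower at day 7. Nothing is read from that count, because the family was chosen on this contrast. The median over members was 0.68, against -0.06 over all genes. The values of Emilin1 (0.68, SE 0.468), Mfap5 (0.47, SE 0.357), Fbn1 (0.35, SE 0.409) and Lox (0.00, SE 0.737) depended on the method. In limma-voom with sample quality weights, which called 5780 of 11492 genes, they were 1.79 (SE 0.29) for Emilin1, 1.36 (SE 0.31) for Mfap5, 1.40 (SE 0.305) for Fbn1 and 1.99 (SE 0.832) for Lox, and Fbln5 was at -0.82 (SE 0.417). With 1 library left out at a time in the edgeR fit, Fbln5 ranged over -2.19 to -0.67 and Eln over 1.65 to 1.89.

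Within DR, 0 members were past the threshold, in a contrast that called 0.0087% of genes, and 5 members were among the 2589 of 11492 genes with an unadjusted p under 0.05 (edgeR). DESeq2 called 3 members there, among 1069 genes. Without DR day 3 replicate 4 the edgeR count was 1 member (Fbln1) among 369 genes, and without IR day 3 replicate 6 it was 4 (Eln, Fbln1, Fbln5 and Mfap4) among 1420 genes. Within IR, where 0.139% of genes were called, the 2 members past the threshold were Eln and Fbln1, the genes whose rise with time chose the family, so that outcome is no test of them. That count was 0 or 1 without any single one of the 12 day 7 libraries, without DR day 3 replicate 4 or 6 and without IR day 3 replicate 3, 4 or 6, and it was 3, with Mfap4 and 402 genes called, without IR day 3 replicate 1. Eln and Fbln1 were also the members whose IR day 7 libraries all lay above all IR day 3 libraries, a further view of the same values, as did 0.583% of genes. In DR no member separated the days, beside 1.93% of genes wholly higher and 1.08% wholly lower at day 7.

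The sizes of the time values shifted when libraries were left out or tissue lists were added as covariates. All libraries left out here were from day 3, and the fibroblast share moved with the day. Tissue content and day therefore cannot be told apart, and the cause of the shifts was not tested. Without the 4 libraries of high lipid gland share, the log2 fold change of day 7 over day 3 was 1.5 (SE 0.274) for Eln, 0.94 (SE 0.126) for Fbln1, 1.18 (SE 0.277) for Mfap4 and 0.58 (SE 0.157) for Loxl1, while Emilin1 was at 0.17, Mfap5 at 0.09, Fbn1 at -0.08 and Lox at -0.57. Leaving out also the 2 libraries of highest nasal gland share gave 1.43 for Eln, 0.89 for Fbln1 and 1.12 for Mfap4. Day 3 then held only replicates 4, 5 and 6 of DR and replicates 1, 2 and 5 of IR. With the ligament fibroblast list as a covariate, Fbln1 was at 0.77 (SE 0.176), Eln at 1.27 (SE 0.297) and Mfap4 at 1.05 (SE 0.281), whereas Loxl1 was at 0.26, Mfap5 at -0.16, Emilin1 at -0.48, Fbn1 at -0.56 and Lox at -1.47. With the skeletal muscle, lipid gland and nasal gland lists as covariates, Eln was at 1.62 (SE 0.335), Mfap4 at 1.44 (SE 0.279), Fbln1 at 0.95 (SE 0.227) and Fbln5 at 1.12 (SE 0.306).

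**Figure D4:**
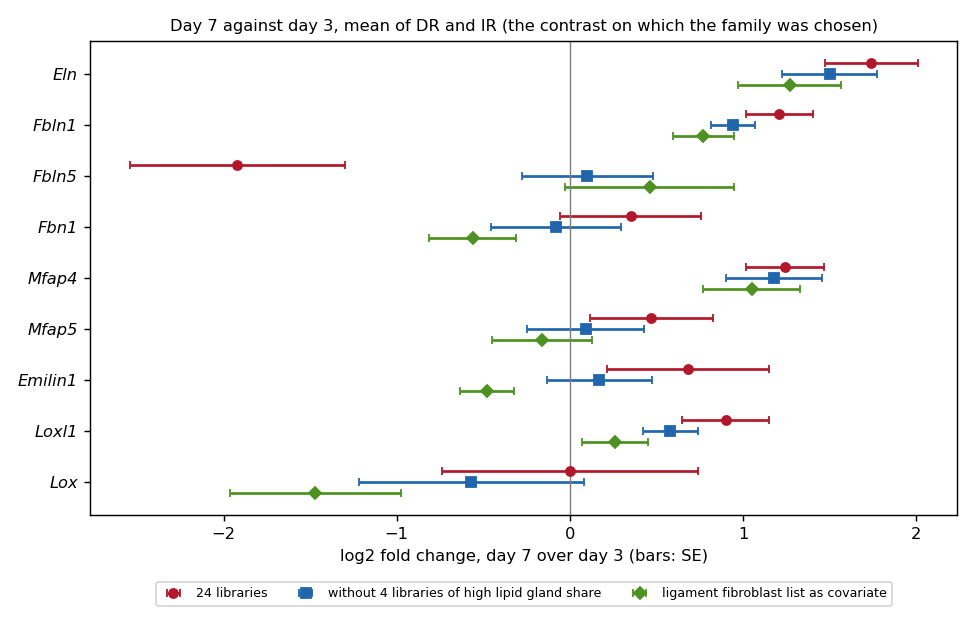
Log2 fold change of day 7 over day 3 (x axis, bars for the SE) for each gene (y axis) in the fit of all 24 replanted libraries, without the 4 libraries of high lipid gland share, and with the ligament fibroblast list as a covariate. Eln, Fbln1 and Mfap4 stay right of 0 in all 3 fits, Fbln5 is at -1.92 in the first and at 0.10 and 0.46 in the others, and Fbn1, Emilin1 and Lox shift to the left.

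Set beside the single NT library, which allows no test, every member but Loxl1 was within the range of the replanted libraries. Loxl1 lay below the NT value of 87.9 CPM in all 24 replanted libraries, as did 9.1% of genes, and so in the 12 of day 7, as did 16.2%, while no member lay above NT throughout, beside 6.06% of genes. The summed level of the 9 genes was 532, 639 and 791 CPM in DR day 7, 558, 833 and 906 CPM in IR day 7, 262, 467 and 794 CPM in DR day 3, 208, 344 and 783 CPM in IR day 3 and 736 CPM in NT. The make-up of that sum varied as well. Fbln5 was 74.3% of it in IR day 3 replicate 6 and at most 2.45% in IR day 7. Eln was 12.7% of it in the median DR day 7 library and 14.5% in the median IR day 7 library, against medians of 5.93% for DR day 3 and 8.21% for IR day 3, and 13.9% in NT.

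Within groups, Fbn1, Lox and Emilin1 varied together, and Eln varied with Mfap4. Likeness was measured as the Pearson correlation of log2 CPM over the 24 replanted libraries with group means removed, as a description, since all values of a library share its depth and tissue content. Fbn1 and Lox had r = 0.888, Fbn1 and Emilin1 0.842 and Lox and Emilin1 0.82, and these were 0.88, 0.925 and 0.878 over the 20 libraries without high lipid gland share. Eln and Mfap4 had r = 0.778 (0.869 over the 20), but Eln had only 0.283 with Fbn1 and 0.163 with Lox, and Mfap4 had 0.0289 with Fbn1. Mfap5 was closest to Fbn1 (0.751, and 0.618 over the 20), and Fbln1 to Loxl1 (0.772, and 0.252 over the 20). IR day 3 replicate 2 showed both sides in 1 library: Eln was at 10.1 CPM and Mfap4 at 8.75 CPM, near the bottom of the series, while Fbn1 was at 154 CPM, Lox at 14.4 CPM and Emilin1 at 366 CPM.

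Some likenesses came with the lipid gland libraries. Loxl1 and Emilin1 had r = 0.851 over 24 libraries and 0.352 over 20, and Fbln5 had -0.777 with Emilin1 over 24 and -0.124 over 20. Fbln5 and Mfap4 had r = 0.27 over 24 libraries and 0.715 over the 20, and Fbln5 and Eln had -0.206 over 24 and a positive r over the 20, above that of Fbln1 and Eln there (0.399).

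**Figure D5:**
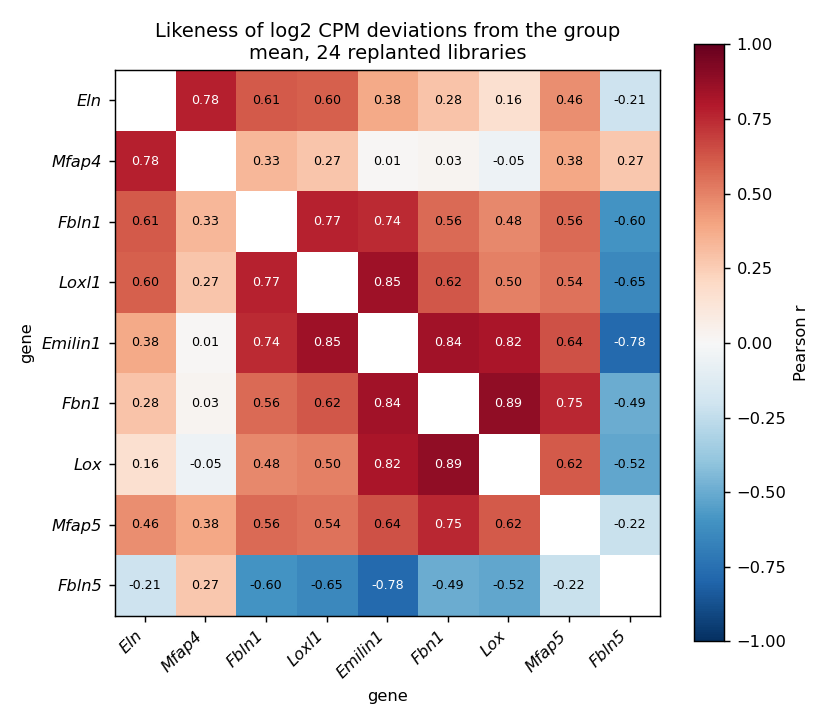
Pearson r between the members' log2 CPM after the group mean is taken out, over 24 replanted libraries, with both axes listing the 9 genes. Fbn1, Lox and Emilin1 form 1 block (0.82 to 0.89), Eln pairs with Mfap4 (0.78), and Fbln5 is negative with all members except Mfap4.

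The members also differed in which tissue list they followed. With the ligament fibroblast list, r was 0.955 for Emilin1, 0.895 for Loxl1, 0.771 for Fbln1, 0.751 for Fbn1 and 0.735 for Lox, but 0.455 for Eln, 0.0858 for Mfap4 and -0.807 for Fbln5 (24 libraries, group means removed). Emilin1 followed the macrophage list (0.947) and the osteoblast and odontoblast list (0.947) as closely, so these lists moved together. Eln was closest to the keratinocyte list (0.68), and Mfap4 and Fbln5 to the smooth muscle and pericyte list among the lists of connective and vascular cells (0.565 and 0.64). Fbln5 had 0.885 with the lipid gland list. By Spearman rank correlation this was 0.619, and with the fibroblast list it was 0.903 for Emilin1, 0.789 for Loxl1 and -0.648 for Fbln5. All these values include the 4 libraries of high lipid gland share, and values without them are not given. The part of each tissue in the member levels was not tested.

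The most similar genes, among all tested genes of sufficient level, were looked up for 6 of the 9 members. Those nearest to Eln were Cldn1 (r = 0.879), a tight junction protein, Tmem45b (0.817), Itgb4 (0.815), the hemidesmosome integrin, Ppl (0.805), a cornified-envelope protein, Defb14 (0.794), Gpc3 (0.792), Crabp2 (0.788) and Cpxm2 (0.786). For Mfap4 they were Ltbp4 (0.842), which in mice directs elastic fibre assembly through Fbln5, the dermatopontin gene Dpt (0.781) and Eln itself. Lox was closest to Hif1a (0.957), the hypoxia-inducible factor subunit, Slfn3 (0.95) and Entpd1 (0.943). Fbn1 was closest to Pxdn (0.97), a peroxidase that cross-links collagen IV, Ahnak (0.963) and Rhoj (0.962). Those nearest to Fbln1, Eci3 (0.889), LOC100912083 (0.854) and Mt2A (0.853), dropped to 0.492, 0.599 and 0.329 over the 20 libraries without high lipid gland share. For Fbln5, added after its values had been seen, they were Ugdh (0.976), Slco2b1 (0.969) and Dhrs7b (0.968).

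Other genes of the pathway were taken from 4 lists. In the averaged drying comparison, at either day and in the interaction, 0 genes of any list passed the edgeR test, where 0% of all genes were called. Among 17 tested scaffold and microfibril genes the lowest p in the interaction was that of Efemp1, a fibulin (-1.42, SE 0.564, edgeR adjusted p = 1), and Ltbp4 followed at -1.12 (SE 0.541). Their sign was that of Mfap5. At day 7, 1 of these 17 genes was above 0 in DR over IR, and the list's median was -0.28, against 0 over all genes. This was not particular to the scaffold list. Of 18 elastin-degrading proteases and inhibitors, 1 was above 0 (median -0.27). Above 0 were also 4 of 14 cross-linking and chaperone genes (median -0.16) and 4 of 15 TGF-beta genes (median -0.05).

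Over time, 6 of the 17 scaffold and microfibril genes were called higher at day 7 and 0 lower (edgeR, both drying groups averaged), beside 6.94% and 11.8% of all genes. Mfap2, a microfibril glycoprotein related to Mfap5, was at 28.8, 34.5 and 51 CPM in DR day 7 and at 30.7, 34.3 and 58.7 CPM in IR day 7, against 2.72, 13.1 and 22.5 CPM in DR day 3 and 1.81, 12.4 and 26.3 CPM in IR day 3. All 12 of its day 7 libraries lay above all 12 day 3 libraries, as did 0.0783% of genes, with a log2 fold change of 1.56 (SE 0.33, edgeR adjusted p = 0.00742). Hmcn1 (1.22), the proteoglycan gene Bgn (1.09), Ltbp4 (0.83), the microfibril-binding protease Adamts10 (0.76) and Ltbp3 (0.48) were the others. The median of the list was 0.73, against -0.06 over all genes.

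Of 14 tested genes for cross-linking, its processing and copper supply, and tropoelastin chaperones, 3 were called higher and 0 lower. These were Bmp1 (1.09), the protease that activates prolysyl oxidase, Glb1 (0.98), whose splice form chaperones tropoelastin in human cells, and Loxl3 (0.62). Of 18 proteases that degrade elastin and their inhibitors, 2 were higher and 0 lower, the cathepsins Ctss (1.43), an elastase of macrophages, and Ctsb (1.13). Ctss was at 137, 209 and 315 CPM in DR day 7 and at 106, 254 and 270 CPM in IR day 7, against 30.6, 70 and 179 CPM in DR day 3, 19.5, 73.6 and 124 CPM in IR day 3 and 69.8 CPM in NT. The macrophage list moved with it, at a median of 0.323% of counts in DR day 7 and 0.409% in IR day 7, against 0.127% in DR day 3 and 0.116% in IR day 3. Of 15 TGF-beta genes, 2 were higher and 0 lower, the integrin Itgb5 (0.57) and the signal transducer Smad4 (0.36). These lists were chosen with results of these libraries known, and the fibroblast share moved with the same contrast, so their counts are no independent sign for the family.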

How the data were processed

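Libraries were made with the Lexogen QuantSeq kit from 500 ng of Trizol-extracted total RNA, per the labels' protocols. The authors deposited raw counts of reads for each gene symbol, in a file for each library and without normalisation. Bowtie2, edgeR and the builds mm10 and rn6 are named in the submitters' processing notes, and what each served for, the annotation and strand use are not stated in these sources. Of entries that repeat a symbol the most counted was kept (17048 entries, 16881 symbols).

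The 24 replanted libraries entered 1 edgeR quasi-likelihood fit (edgeR 4.0.16, R 4.3.3) with 4 group means, TMM scaling and filterByExpr, which left 11492 genes. p-values were adjusted over all of them (Benjamini-Hochberg, threshold 0.05), and log2 fold changes are DR over IR or day 7 over day 3. CPM use the TMM-scaled library sizes, and log2 CPM a prior count of 2. NT was put on the same scale and not tested. The script was tested on simulated data. DESeq2 1.42.0 and limma 3.58.1 served as alternatives. No 2 libraries held identical counts.

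Members and lists were chosen with earlier results of these data known. All members are named. Of each other list up to 6 called genes per contrast of largest change are named, or the 2 of smallest p (of which the text gives those of the interaction for the scaffold list), and the genes most like Eln (8) and Fbln1, Mfap4, Lox and Fbn1 (3 each) among those with an average log2 CPM of at least 3. Same-numbered DR and IR libraries at day 7 correlated in their deviations from the group mean (r = 0.29 to 0.811). DR day 7 replicates 3 and 4, however, were most like IR day 7 replicates 1 and 6. The same-numbered libraries were also fitted as pairs, which changed no call in the drying comparisons. Between the days, that fit lowered the counts of members past the threshold within IR and averaged over drying, as given below. At day 3 r was -0.492 to 0.294. Promoter windows are from RefSeq (GRCr8). The table held 5 of the 10 members.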

Additional observations from a re-analysis of the deposited data

Results flagged for a closer look

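In 36 sets of 6 libraries (9 genes, 4 groups), 4 held a library whose gap to its nearest neighbour exceeded Dixon's 95% critical share of the group's range. Chance alone flags about 1 in 20 such sets.

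IR day 3 replicate 6 was set apart in 3 of them. Fbln5 was at 257 CPM there, against 6.85 to 11.2 CPM in the other 5 libraries. Fbln1 was at 16.7 CPM, against 46.5 to 62.9 CPM, and Loxl1 at 4.02 CPM, against 21.3 to 34.8 CPM. The same library held 2.65% of lipid gland counts and 0.135% of ligament fibroblast counts, the highest and the lowest share of the 24. The fourth was Lox in IR day 7 replicate 6, at 0 CPM, against 2.63 to 7.46 CPM in the other 5, where counts of this gene were few.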

How the results depend on the processing

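No member passed the threshold in any drying comparison in 12 of the 13 other settings (those with 12 libraries give values for a single day), and the exception was limma-voom with sample quality weights, which called Fbln5 (1 member) over both days, at day 3 and in the interaction. Leaving out 1 library in turn gave 0 to 1 members over both days and 0 to 1 at day 3, the 1 being Fbln5 without IR day 3 replicate 6, and 0 at day 7 and in the interaction. The replicate block over 24 libraries, and over the 12 of a day, left 0 members called in each drying comparison. The cause of these shifts was not tested.

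The count of members past the threshold in day 7 over day 3 (5, among 2156 genes called) was 7 with weighted limma-voom (5780 genes), 4, without Fbln5, with limma-voom (2248 genes), with the replicate block (1197) and with no filter on low counts (1946), 3 without the 4 libraries of high lipid gland share (176), 2 without these and the 2 of high nasal gland share (51), 2 with the muscle, lipid gland and nasal gland lists as covariates (38), and 1 with the fibroblast list as a covariate (61), and it was 4 to 5 with 1 library left out. These counts describe the contrast that chose the family. The fits without both kinds of gland library and with the fibroblast covariate were chosen after seeing the data. Within DR the count (0) was 3 with DESeq2 (1069 genes called) and 6 with weighted limma-voom (3921 genes), and 0 to 4 with 1 library left out. Within IR the count (2) was 1 with RLE size factors, 3 with DESeq2 (760 genes called) and 7 with weighted limma-voom (4469 genes called). It was 0 with the replicate block, with the 12 IR libraries alone, with or without the block, and with the 3 tissue lists. It was also 0 without the lipid and nasal gland libraries and with the fibroblast list, and 0 to 3 with 1 library left out. Across days the same numbers did not correlate in every pair (r = -0.57 to 0.394), so the block there is a shared number only.

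Of the 36 drying differences and interactions of single members, 22 changed sign in at least 1 setting. None was past the threshold in the main fit or in the setting that reversed it. Fbln5, though, was past it in weighted limma-voom over both days (1.61), at day 3 (3.19) and in the interaction (-3.17). With the muscle, lipid gland and nasal gland lists as covariates these 3 Fbln5 values had the opposite sign (-0.46, -1.10 and 1.30). With limma-voom, the sign changed for Lox (0.05) over both days, Loxl1 (0.04) at day 3, Mfap4 (0.02) and Emilin1 (-0.05) in the interaction. With sample quality weights in limma-voom, it changed for Fbln1 (-0.08), Fbn1 (0.07) and Mfap5 (0.11) over both days, Eln (-0.03) and Fbln1 (-0.06) at day 3. Without the filter on low counts, it changed for Loxl1 (0.02) at day 3. With ribosomal RNA entries removed, it changed for Loxl1 (0.02) at day 3. With the 12 libraries of the day alone, it changed for Loxl1 (0.01) at day 3. With the replicate number as a block, it changed for Fbn1 (0.11) and Lox (0.24) over both days, Lox (0.32), Loxl1 (0.01) and Emilin1 (0.04) at day 3, Lox (-0.16) and Emilin1 (-0.24) in the interaction. With the muscle, lipid gland and nasal gland lists as covariates, it changed for Eln (0.06), Fbln5 (-0.46), Fbn1 (0.55), Lox (1.01), Loxl1 (0.29), Mfap5 (0.22) and Emilin1 (0.71) over both days, Fbln1 (0.02), Mfap4 (0.05) and Emilin1 (0.20) at day 7, Fbln5 (-1.10), Lox (1.5), Loxl1 (0.70) and Emilin1 (1.22) at day 3, Fbln5 (1.30), Lox (-0.97), Mfap4 (0.55) and Emilin1 (-1.02) in the interaction, Fbln5 (1.12) in day 7 over day 3. Without the 4 libraries of high lipid gland share, it changed for Fbn1 (0.12), Lox (0.17), Mfap5 (0.19) and Emilin1 (0.06) over both days, Lox (0.22), Loxl1 (0.21) and Emilin1 (0.31) at day 3, Lox (-0.10) and Emilin1 (-0.49) in the interaction, Fbln5 (0.10) in day 7 over day 3. Without these and the 2 of high nasal gland share, it changed for Fbn1 (-0.02) and Loxl1 (0.04) at day 3, Mfap4 (0.03) in the interaction, Fbln5 (0.06) in day 7 over day 3. With the fibroblast list as a covariate, it changed for Fbn1 (0.06), Lox (0.12) and Mfap5 (0.02) over both days, Emilin1 (0.03) at day 7, Loxl1 (0.07) at day 3, Fbln5 (0.46) in day 7 over day 3. Among day 7 over day 3 values that were not past the threshold, the sign also changed for Fbn1 (-0.34) with the 3 lists, Fbn1 (-0.08) without the lipid gland libraries, Emilin1 (-0.08), Fbn1 (-0.35) and Mfap5 (-0.19) without both kinds of gland library, and Emilin1 (-0.48), Fbn1 (-0.56) and Mfap5 (-0.16) with the fibroblast list, while Lox (0.00) ranged over -1.47 to 1.99. With 1 library left out, the ranges of those that changed sign were Eln -0.26 to 0.01, Emilin1 -0.43 to 0.07, Fbln1 -0.07 to 0.13, Fbn1 -0.33 to 0.11, Lox -0.57 to 0.13 and Mfap5 -0.27 to 0.12 over both days, Fbln1 -0.15 to 0.03, Fbln5 -0.28 to 0.53 and Lox -0.29 to 0.34 at day 7, Eln -0.08 to 0.48, Emilin1 -0.66 to 0.33, Fbln1 -0.07 to 0.33, Fbn1 -0.38 to 0.50, Lox -1.26 to 0.15, Loxl1 -0.23 to 0.12 and Mfap4 -0.30 to 0.17 at day 3, Emilin1 -0.52 to 0.46, Fbln1 -0.40 to 0.01, Fbn1 -0.78 to 0.09, Lox -0.03 to 1.38 and Mfap4 -0.34 to 0.14 in the interaction. Lox had the fewest counts and so the least precise values. All counts of calls carry over to other animals only as far as these libraries are separate animals, which the labels do not say.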
